A study of Mus musculus with 6 samples.

Results

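Cortical neurons that had been depolarized for 6 h were compared with neurons at rest, using 4 of the 6 RNA bisulfite sequencing (RNA BS-seq) libraries of the series, 2 from KCl 0h and 2 from KCl 6h. The neurons were taken from the cortex of E16.5 C57BL/6 mouse embryos, both sexes pooled, and were grown in culture for 7 days. All of them, the 0 h controls included, were silenced overnight with 1 µM TTX and 100 µM DL-AP5, so that rest means blocked sodium channels and NMDA receptors. The treated group then received 55 mM KCl for 6 h. In RNA BS-seq, bisulfite converts unmethylated cytosines, which are read as T, while 5-methylcytosine (m5C) is still read as C. Each deposited list therefore gives, per cytosine, both how many reads cover it and how many of these stayed unconverted. A cytosine entered the transcript comparison when it was listed in all 4 libraries with at least 20 reads. Of 328102 cytosines listed in all 4 libraries, 326028 had that coverage, 316994 of them lay in a single gene, and these covered 6218 gene symbols. The 3922 gene symbols with at least 5 such cytosines are the genes compared here, with a median of 31 cytosines per gene. A cytosine was taken as a methylation site when it also had at least 6 unconverted reads and a level of at least 10% in both replicates of 0 h or of 6 h, which left 2324 sites. The study also filtered reads with several unconverted cytosines, sites of low signal/noise, and sites in RNA secondary structure. These filters were not repeated here, so a site is a position read as unconverted and need not be an m5C site of the study.

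High extracellular KCl depolarizes the neuronal membrane and opens voltage-gated calcium channels. The calcium entering the cell activates kinases that phosphorylate CREB and other factors already present, and these switch on immediate early genes, many of which encode transcription factors. The products of the early genes then drive a later set that includes secreted neuropeptides, synaptic proteins, and regulators of signaling. In mRNA, m5C is placed mainly by NSUN2 and NSUN6, is bound by readers such as ALYREF and YBX1, and can be oxidized by TET enzymes.

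The libraries listed between 1564646 and 2380612 positions, and the median coverage of a listed cytosine ranged from 324 to 464 reads. KCl 6h replicate 1 stood apart from the other 3, with the most positions, the lowest median coverage, and 0.115% unconverted reads at deeply covered cytosines of low level, against 0.0837% to 0.0869% in the others. Results that rest on this library are given with and without it. Between replicates, the log2 value of a gene differed by less than 0.5 for 98.6% of genes at 0 h and for 99.3% at 6 h. The replicates were biological duplicates. No gene is deleted or overexpressed in these neurons, so no targeted gene could serve to check the labels.

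Among the 3922 genes, 1410 were called higher at 6 h (36.0%) and 1418 were called lower (36.2%) by edgeR's quasi-likelihood test at an adjusted p of 0.05. The change of a gene was the median over its cytosines of log2 of the scaled coverage at 6 h over that at 0 h. Over all genes the median change was −0.0034, with quartiles at −0.34 and 0.34, while the median SD of a gene's log2 value between replicates was 0.074. A change of at least 1 on the log2 scale was reached by 179 genes called higher (4.56%) and by 141 called lower (3.6%). Values of the 2 times did not overlap for 1651 higher genes (42.1%) and 1608 lower genes (41.0%). Without KCl 6h replicate 1, 1176 genes were called higher and 1257 lower. Transcript levels are medians of scaled coverage, that is, reads over a cytosine of the gene after the library was brought to a common depth.

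**Figure D1:**
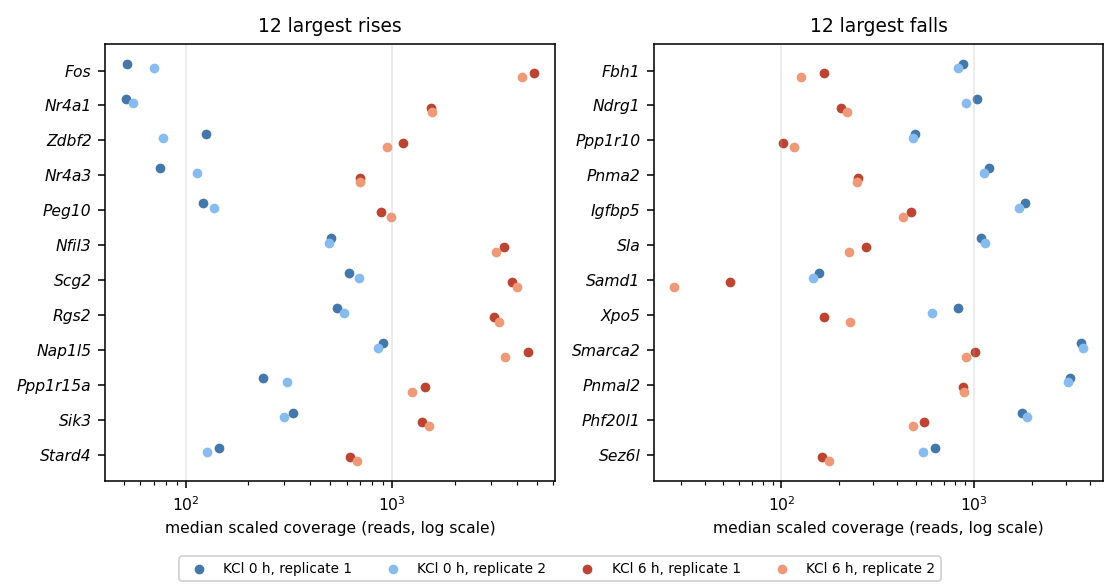
Median scaled coverage in reads (log axis) of the 12 genes with the largest rise (left) and the 12 with the largest fall (right) among genes called by edgeR whose values do not overlap between the times, 1 point per library. The distance between the times is widest for Fos, and the replicates of Samd1 at 6 h lie farther apart than those of most genes.

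The 2 largest rises were those of the immediate early transcription factors Fos and Nr4a1. Fos (chr12:85473890-85477273, plus strand), which encodes a subunit of the AP-1 factor, had a scaled coverage of 51.5 and 69.8 reads at 0 h and of 4861 and 4262 reads at 6 h. Its log2 change was 6.33 ± 0.15 (SE, n = 2 per time; edgeR adjusted p = 6.92e-08), an 80.4-fold rise that was the largest of the 3922 genes. Nr4a1, an orphan nuclear receptor, had 51.1 and 55.1 reads at rest and 1540.2 and 1562 after 6 h of KCl, a log2 change of 4.85 ± 0.13 (SE). Its relative Nr4a3 rose from 75 and 113 reads to 694 and 693, a log2 change of 3.01 ± 0.19. Fosl2, another AP-1 subunit, rose by 1.82 and the Krüppel-like factor Klf6 by 0.65. Jund, the AP-1 subunit that is present in resting cells, was at 4947 and 5466 reads at 0 h and at 4959 and 4877 at 6 h and was not called (edgeR adjusted p = 0.26). In all, 6 of the 27 listed factors could be measured, of which 5 were higher and 0 lower (36.0% and 36.2% over all genes), and their median log2 change was 2.42.

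The other 21 factors had fewer than 5 cytosines listed in all 4 libraries, so their changes are not among the calls. A cytosine enters a list only with 10 reads and an unconverted read, and the cytosines listed at 0 h and at 6 h are then different ones, so unscaled reads are given side by side without a fold. Npas4, a neuronal factor induced by calcium, had no cytosine with 20 reads in both 0 h libraries and 55 in both 6 h libraries, where their median coverage was 362 and 346 reads. Crem, a CREB family member with inducible repressor isoforms, had 4 cytosines at 0 h, with median coverages of 165 and 207 reads, and 65 at 6 h with 4194 and 4488. Junb had 1 cytosine at 0 h and 49 at 6 h, and Per1 had 1 and 32. The number of cytosines listed is not a measure of transcript level either. At other factors the cytosines listed at 6 h had lower coverage than those listed at 0 h, but as the sets differ no fall was measured. Jun had 78 cytosines at 0 h with 1549 and 1418 reads and 41 at 6 h with 42.0 and 32.0. Bhlhe40 had 13 cytosines at either time, with 390 and 358 reads at 0 h and 26 and 29 at 6 h, Klf10 had 5 with 127 and 136 reads and then 1 with 32 and 63, and Myc had 18 with 537.5 and 495.5 reads and then 42 with 341.5 and 321. Egr1, Egr2, and Egr4 had 0 such cytosines at both times.

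Of the 30 listed secreted and synaptic effectors of the late response, 8 could be measured and 7 of these were called higher and 0 lower (36.0% and 36.2% over all genes), with a median log2 change of 1.36. Scg2, which encodes the neuropeptide precursor secretogranin II, was at 617 and 686 reads at 0 h and at 3815 and 4016 at 6 h, a log2 change of 2.69 ± 0.08 (SE, n = 2; edgeR adjusted p = 6.92e-08). Rgs2, a brake on G protein signaling, rose from 539 and 584 reads to 3090 and 3294, a change of 2.54 ± 0.08. All 4 values of either gene were separated by time with a wide gap. Rgs4 rose by 1.2 on the log2 scale, the synaptotagmin gene Syt4 by 1.23, the cell cycle inhibitor gene Cdkn1a by 1.49, and the kinase gene Plk2 by 0.55. Npy, the precursor of neuropeptide Y, was at 425 and 590 reads at 0 h and 532 and 575 at 6 h and was not called.

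Homer1, a scaffold protein of the postsynaptic density, rose from 382 and 279 reads to 1050 and 996, a log2 change of 1.65 ± 0.14 (SE; edgeR adjusted p = 2.67e-05). On reads summed over its cytosines, edgeR gave a log2 change of 0.94. Its change was uneven along the transcript. With its cytosines divided at the middle of their order, the 7 of the 5′ part changed by a median of 2.05 and the 8 of the 3′ part by 0.99. Homer1 is known for a short isoform, Homer1a, which is induced by activity and ends upstream of the long isoforms. In the 5′ part the median scaled coverage was 97.4 and 94.5 reads at 0 h and 646 and 522 at 6 h, and in the 3′ part it was 574 and 459 at 0 h and 1125 and 1057 at 6 h.

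Of the 22 effectors that could not be measured, Bdnf, the brain-derived neurotrophic factor, had 0 cytosines with 20 reads in both 0 h libraries and 75 in both 6 h libraries, the most among 190 genes with at least 5 at 6 h and 0 at rest. Its highest unscaled coverage at any listed cytosine was 110 and 53 reads at 0 h and 3016 and 3282 at 6 h. Vgf, a neuropeptide precursor, had 2 cytosines at 0 h and 225 at 6 h, Pcsk1, a protease that processes such precursors, had 3 and 139, and the pentraxin gene Nptx2 had 0 and 40. Among inhibitors that feed back on the MAP kinase cascade, 3 of 18 could be measured and all 3 were called higher, where 36.0% of all genes were, with log2 changes of 0.55 ± 0.08 for Spred1, 0.49 ± 0.20 for Spred2, and 0.44 ± 0.11 for the phosphatase gene Dusp8 (SE). The call of Spred2 was lost without KCl 6h replicate 1 (log2 change 0.36, edgeR adjusted p = 0.14). Among those not measured, Rasa1 had 11 cytosines at 0 h and 84 at 6 h, Dusp3 had 16 and 68, Dusp1 had 8 and 51, and Spry2 had 2 and 47. Dusp7 had 3 and 1, Dusp2 had 1 and 0, and Spred3 had 6 and 5. These counts are not a measure of transcript level. Spred3, listed at fewer cytosines after KCl, had unscaled median coverages of 86.5 and 60.5 reads at rest, then 223 and 268. Those of Dusp3 were 289 and 233.5, then 313 and 433.5. Rasa1 had 176 and 101, then 418.5 and 502.5, and Dusp1 231 and 211.5, then 514 and 482. Spry2 had 330 and 275, then 1296 and 1410, and Dusp7 416 and 328, then 68 and 76. As the listed cytosines differ between the times, no change was measured.

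The remaining genes among the 12 largest rises belonged to several classes. Nfil3, a bZIP transcription factor, rose from 507 and 494 reads to 3475 and 3177, a log2 change of 2.76 ± 0.08 (SE; edgeR adjusted p = 7.81e-08). Zdbf2, Peg10, and Nap1l5 are imprinted genes expressed from the paternal allele. Zdbf2 was at 126 and 77.6 reads at 0 h and at 1129 and 943 at 6 h (log2 change 3.31 ± 0.21), Peg10 at 121 and 136 and then 879 and 989 (2.85 ± 0.13), and Nap1l5 at 899.5 and 852 and then 4539 and 3530 (2.31 ± 0.11). Ppp1r15a, which recruits a phosphatase to the translation factor eIF2, rose by 2.31 ± 0.14, from 236 and 308 reads to 1442 and 1248. Sik3, a salt-inducible kinase, rose by 2.21 ± 0.10, from 330.3 and 299.9 reads to 1395 and 1504. The separation of the times in these genes follows from how they were chosen.

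The largest fall was that of Fbh1, a DNA helicase with an F-box, which was at 878 and 830.5 reads at 0 h and at 167 and 127 at 6 h. Its log2 change was −2.64 ± 0.15 (SE, n = 2 per time; edgeR adjusted p = 1.14e-06), a 6.25-fold fall. Ndrg1, a stress-responsive gene, fell by 2.35 on the log2 scale, from 1031 and 911 reads to 204 and 219. Ppp1r10, a regulatory subunit of nuclear protein phosphatase 1, went from 495 and 483 reads to 102 and 117. Smarca2, the BRM ATPase of SWI/SNF chromatin remodelers, had 206 cytosines and went from 3608 and 3672 reads to 1006 and 912 (log2 change −1.83 ± 0.07). Xpo5, the exporter of pre-miRNAs, went from 830.2 and 605 reads to 166 and 227 (−1.83 ± 0.19). The others were Pnma2 (−2.17), Igfbp5, a binding protein of insulin-like growth factors (−2.05), the adaptor gene Sla (−2.02), Samd1 (−1.93), Pnmal2 (−1.80), Phf20l1 (−1.79), and Sez6l (−1.75). Samd1 had the lowest coverage of these, going from 157 and 146 reads to 54.3 and 27.8, and the largest standard error, 0.32.

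Of 26 listed genes of cholesterol synthesis and uptake 18 could be measured, and 14 were called higher and 3 lower (36.0% and 36.2% over all genes), with a median log2 change of 0.77. The rises included early and late steps of the route, from Hmgcs1 (0.85) over Idi1 (1.81 ± 0.08), Fdft1 (0.52), Sqle (0.69), and Lss (1.05) to Cyp51 (1.36), Msmo1 (1.53), and Sc5d (1.56). Idi1, the isopentenyl isomerase, was at 1242 and 1206 reads at 0 h and at 3964 and 4614 at 6 h. Insig1, which retains the SREBP regulators in the endoplasmic reticulum, rose by 1.45, and Srebf2, which encodes the SREBP that drives this pathway, by 0.57. Stard4, a carrier of sterols, rose by 2.15 ± 0.13 (SE; edgeR adjusted p = 5.35e-07), from 145 and 126 reads to 623 and 673. The 3 exceptions were enzymes of the same route. Nsdhl fell by 1.29 on the log2 scale, from 875 and 854 reads to 345 and 375, Mvd fell by 0.88, and Dhcr7 fell by 0.49.

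**Figure D2:**
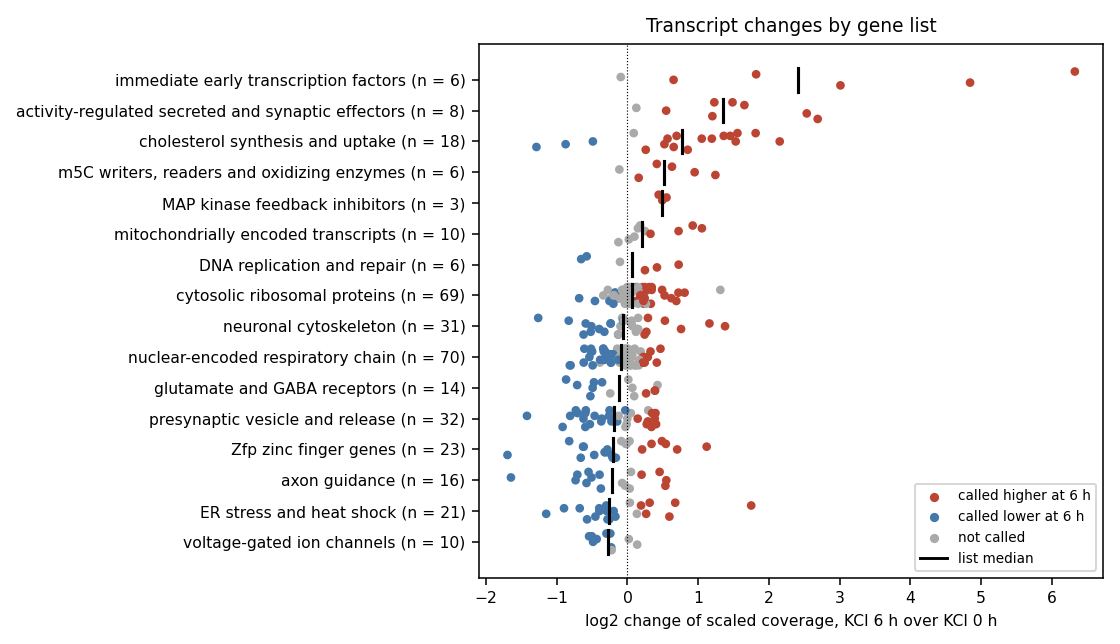
Log2 change of scaled coverage, KCl 6 h over KCl 0 h, for the measured members of 16 gene lists, 1 point per gene, coloured by the edgeR call, with a black bar at the list median. The medians run from 2.42 for immediate early transcription factors to −0.27 for voltage-gated ion channels, and most lists hold calls in both directions.

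Of 34 listed genes of endoplasmic reticulum stress and heat shock 21 could be measured, and 6 were higher and 13 lower, with a median of −0.26, where 36.0% of all genes were higher and 36.2% lower. Atf4, the transcription factor of the integrated stress response, rose from 1086 and 1193 reads to 4057 and 4300 (log2 change 1.75 ± 0.07, SE; edgeR adjusted p = 2.82e-07), and its target Asns, asparagine synthetase, rose by 0.67 ± 0.09. Calr, the chaperone calreticulin, went from 8172 and 7463 reads to 4398 and 4347 (−0.90 ± 0.07) and the disulfide isomerase gene Pdia4 from 787 and 844 to 365 and 319 (−1.15 ± 0.11). Hsp90b1, Pdia3, Pdia6, Dnajb11, and Manf were lower by 0.40 to 0.68, and Hyou1, Canx, Xbp1, Hspa5, and the mitochondrial chaperone genes Hspe1 and Hspd1 were lower by 0.17 to 0.30. Of the cytosolic chaperone genes, Hsph1 and Hspa8 were not called, and Hsp90aa1, Hsp90ab1, Dnaja1, and Dnajb1 were higher, by 0.31, 0.19, 0.26, and 0.59.

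Of 18 listed m5C enzymes and readers 6 could be measured, 5 were higher and 0 lower (36.0% and 36.2% over all genes), and the median log2 change was 0.52. Nsun2, the main writer, was at 1845 and 1865 reads at 0 h and at 1669 and 1769 at 6 h, a change of −0.12 that was not called (edgeR adjusted p = 0.14). Tet3, which oxidizes m5C, rose from 155 and 126 reads to 389 and 329 (1.24 ± 0.16, SE). Srsf2, a splicing factor reported to bind m5C, rose from 4827 and 4294 reads to 8549 and 8500 (0.95 ± 0.07). Fmr1 rose by 0.63, Alyref by 0.42, and Ybx1 by 0.16. Among the 12 genes not tested, Nsun6 had 5 cytosines at 0 h and 2 at 6 h, Tet1 had 5 and 0, and Nop2 had 16 and 27.

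Receptor genes of the synapse were called in both directions, where 36.0% of all genes were higher and 36.2% lower. Of 33 receptor genes for glutamate and GABA 14 could be measured, with 3 higher and 6 lower and a median of −0.12. The 3 AMPA receptor subunits measured were all lower. Gria1 went from 2275 and 2093 reads to 1309 and 1083 (log2 change −0.87 ± 0.10, SE; edgeR adjusted p = 2.23e-05), Gria3 from 380 and 313 to 227 and 198 (−0.71 ± 0.15), and Gria2 changed by −0.47. The metabotropic receptor gene Grm5 changed by −0.52. Grin1, the obligatory NMDA receptor subunit, was higher by 0.39 ± 0.07, from 1182 and 1162 reads to 1518 and 1504. Gabra5 was called higher (0.39 ± 0.21), but not without KCl 6h replicate 2 (0.27, edgeR adjusted p = 0.0966). The list median was −0.0084 without KCl 0h replicate 1. Gabra4 had 0 cytosines with 20 reads in both 0 h libraries and 69 in both 6 h libraries.

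Of 54 listed voltage-gated channel genes 10 could be measured, 7 were lower and 0 higher (36.2% and 36.0% over all genes), and the median was −0.27. The calcium channel subunit gene Cacna1b went from 545 and 439 reads to 313 and 383 (log2 change −0.54 ± 0.14, SE) and the sodium channel gene Scn2a from 713 and 670 to 484 and 482 (−0.50 ± 0.10). Of 40 presynaptic genes 32 could be measured, 8 were higher and 18 lower, against the same shares over all genes, and the median was −0.19. Syn3, a synapsin, had the largest fall, from 1728 and 1496 reads to 669 and 584 (−1.42 ± 0.10), and the vesicle protein gene Sv2b changed by −0.92. The SNARE genes named here went in both directions. Stx1a went from 5655 and 5707 reads to 3231 and 3103, whereas Snap25 went from 3277 and 3551 to 4970 and 4697 (0.40 ± 0.07) and Vamp2 was higher by 0.39. The scaffold gene Erc1 was higher by 0.40.

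Axon guidance genes moved in both directions. Of 61 listed genes 16 could be measured, 4 were higher and 8 lower (36.0% and 36.2% over all genes), and the median was −0.23 (−0.40 with a coverage minimum of 50). The plexin genes Plxnc1 (849 and 721 reads at 0 h, 289 and 242 at 6 h, log2 change −1.65 ± 0.13, SE) and Plxnd1 (−0.73 ± 0.12) were lower, and the receptor genes Epha5 (0.55 ± 0.07) and Robo2 (0.54 ± 0.09) were higher. Of 34 cytoskeletal genes 31 could be measured, with 7 higher and 12 lower and a median of −0.06, so that the share called lower was close to that over all genes. Tubb3, the neuronal beta tubulin, went from 16413 and 14587 reads to 6790 and 7419 (−1.26 ± 0.08; edgeR adjusted p = 1.12e-06) and Tubb4a from 3786 and 3436 to 2017 and 2052 (−0.83 ± 0.07). The neurofilament gene Nefm rose from 1019 and 929.5 reads to 2410 and 2662 (1.38 ± 0.08), Nefl by 1.16 ± 0.07, and Ina by 0.53, as did the tubulin gene Tuba4a by 0.76. Nefh, the heavy neurofilament gene, was not measured, and had 5 cytosines with 20 reads at 0 h and 0 at 6 h. Gap43, Stmn1, and Mapt were not called.

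Among 69 genes whose symbols begin with Rpl or Rps and a digit, 26 were higher and 8 lower, with a median of 0.07. Over all genes 36.0% were higher and 36.2% lower, which is the background for each list of this paragraph, and the share of ribosomal genes called higher was close to it. The symbols take in pseudogenes, Rps19bp1, and the kinase gene Rps6kb1 (0.72 ± 0.13), and reads of ribosomal protein genes can be shared with their processed copies, so single members are uncertain. Rpl13a changed by 0.81 ± 0.07. Rpl3 changed by −0.68 ± 0.16 and was not called without KCl 6h replicate 2 (edgeR adjusted p = 0.111), and its processed pseudogene Rpl3-ps1 changed by −0.46 ± 0.08. Of 70 nuclear genes of the respiratory chain 8 were higher and 26 lower, with a median of −0.09, and Ndufs1 (−0.82 ± 0.07) and Ndufa6 (−0.80 ± 0.09) of complex I had the largest falls. Of 10 mitochondrially encoded transcripts 4 were higher and 0 lower, with a median of 0.21, led by the ribosomal RNAs mt-Rnr2 (from 844 and 727 reads to 1623 and 1660, 1.05 ± 0.09) and mt-Rnr1 (0.92 ± 0.09). Of 23 Zfp genes 6 were higher and 12 lower, with a median of −0.21, and the largest changes were those of Zfp512 (−1.70 ± 0.09) and Zfp207 (1.12 ± 0.08). Of 86 genes of DNA replication and repair only 6 could be measured, 3 higher and 2 lower, with a median of 0.07 that was −0.00081 without KCl 0h replicate 1. Polb, the polymerase of base excision repair, changed by 0.72 ± 0.07, Parp1 by −0.65 ± 0.07, and the endonuclease gene Apex1 by −0.58 ± 0.07.

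The libraries come from whole cultures, in which fewer cells of a type and less RNA per cell cannot be told apart. The counts of markers that follow stand beside 36.0% of all genes called higher and 36.2% called lower. All 5 measured astrocyte markers of 8 were lower at 6 h, among them the glutamate transporter genes Slc1a2 (−0.89) and Slc1a3 (−0.28), Aldoc (−0.70), Gja1 (−0.68), and Aldh1l1 (−0.64). Their summed scaled coverage was 8837 and 8569 reads at 0 h and 6396 and 6188 at 6 h. Of the markers not measured, Gfap had 38 cytosines at 0 h with unscaled median coverages of 91 and 103.5 reads and 25 at 6 h with 373 and 332, and Aqp4 had 10 with 688.5 and 428 reads and then 96 with 91 and 150. Of the GABAergic markers 3 of 4 measured were higher. Gad1 and Gad2, the enzymes that make GABA, rose by 1.22 and 1.21 and the neuropeptide gene Sst by 1.11, while Dlx1 was lower by 0.44. Their sum went from 11022 and 11943 reads to 24188 and 24120. Of those not measured, Slc32a1 had 23 cytosines at 0 h with unscaled median coverages of 460 and 362 reads. At 6 h it had 96 with 125 and 106. Dlx5 had 1 with 759 and 593 reads and then 4 with 432 and 466.5, and Dlx2 had 1 and then 0. Of the glutamatergic markers 3 of 5 measured were higher and 1 lower, with sums of 5288 and 4689 reads at 0 h and 5494 and 5685 at 6 h. Not measured were Slc17a6 (901 and 722.5 unscaled reads, then 796.5 and 843.5) and Bcl11b (416 and 346, then 205.5 and 182). The progenitor markers Nes and Vim were higher by 0.65 and 1.03. Those not measured but listed at many cytosines had lower unscaled median coverage at 6 h, over cytosines that largely differ between the times. It was 1539 and 1311 reads at 0 h and 674 and 559 at 6 h for Hes5, 584 and 560 and then 181 and 182 for Top2a, and 259 and 217 and then 154 and 166 for Mki67. Of the oligodendrocyte lineage markers, Olig1 and Olig2 were higher and Pdgfra was lower. No microglial or endothelial marker could be measured at 5 shared cytosines. The neuronal markers Tubb3, Map2, Snap25, Syt1, Stmn2, Nefl, and Nefm were all present in every library, and 3 of these 7 were higher and 1 lower. Rbfox3, not measured, had 28 cytosines at 0 h with 610.5 and 485 unscaled reads and 56 at 6 h with 238.5 and 241. The part of cell composition in the transcript changes was not tested.

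Requiring cytosines in all 4 libraries left many genes out of the comparison. At least 5 cytosines with 20 reads in both replicates were found for 7453 genes at 0 h and 7688 at 6 h, and 4464 genes reached this at one time or both but were not compared. Of these, 190 had no such cytosine at 0 h and 133 had none at 6 h. On the first side Bdnf, Gabra4, the complex I gene Ndufa1 (57), Npas4, Glns-ps1 (50), and Fgfr1op (48) had the most cytosines, and on the second side Kctd4 (58), 2810013P06Rik (56), the ribosomal protein gene Rps29 (55), Gart, an enzyme of purine synthesis (52), the electron transfer flavoprotein gene Etfa (45), and the mitochondrial transporter gene Abcb10 (43) did. Listed in single libraries, the highest unscaled coverage of Etfa was 1324 and 1100 reads at 0 h and 538 and 687 at 6 h, so reads of the gene were present at both times. Likewise, Gabra4 reached 514 and 293 reads at 0 h and 1406 and 1809 at 6 h.

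Among the 1538 genes with at least 50 cytosines, the interquartile range of the log2 change among the cytosines of a gene had a median of 0.15 and an upper quartile of 0.21. The 5 with the widest interquartile range of the change were Tomm20, Wdr26, Rpl22, Gm42418, and Hnrnpdl. In Tomm20, an import receptor of the outer mitochondrial membrane, the median change was 0.43 over the 41 cytosines of the 5′ part and −0.67 over the 41 of the 3′ part. Coverage of the 5′ part was 2432 and 2279 reads at 0 h and 2918 and 3476 at 6 h, and that of the 3′ part went from 1198 and 1356 reads to 810 and 824. The gene as a whole was not called by edgeR on summed reads (adjusted p = 0.511), whereas limma on the median coverage, which went from 2339 and 2211 reads to 1626 and 1425, gave a log2 change of −0.58 (adjusted p = 0.000198). Wdr26 was called higher, with 0.56 in the 5′ part and −0.48 in the 3′ part. In Rpl22 (−0.09 and −0.89) and Hnrnpdl (−0.36 and −0.70) the 3′ part was also the lower one, while in the lincRNA Gm42418 the 5′ part was (−1.31 and −0.58). The call of Rpl22 was lost without KCl 6h replicate 2 (edgeR adjusted p = 0.0861). In Fos the 5′ and 3′ parts changed by 6.38 and 6.26.

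**Figure D3:**
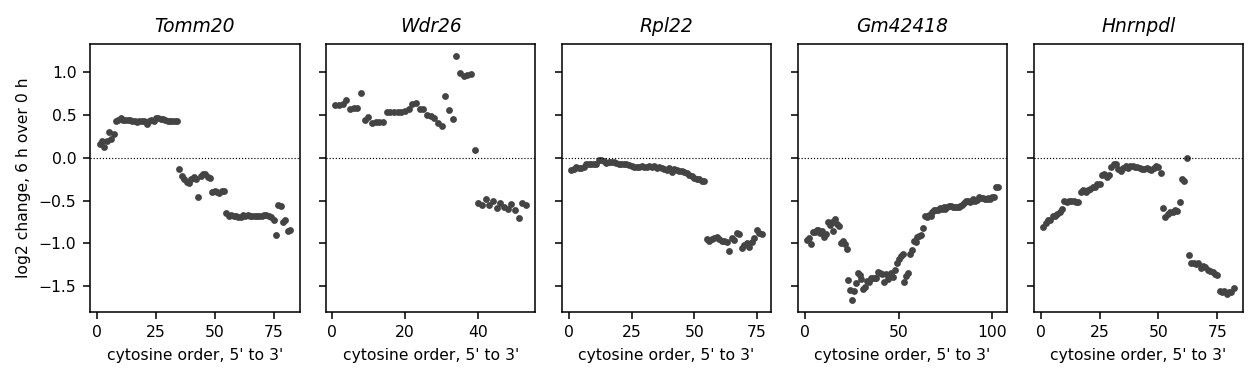
Log2 change of scaled coverage, KCl 6 h over KCl 0 h, at each shared cytosine of the 5 genes with the widest spread, with cytosines in order from the 5′ to the 3′ end (not to scale in bases). In Tomm20 and Wdr26 a 5′ run of cytosines lies above 0 and a 3′ run below it, with the change of sign at a different place in each, and in Rpl22 a 3′ group of cytosines lies apart from the rest.

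The 2324 methylation sites fell into classes of unlike behaviour. They comprised 801 mitochondrial positions, 801 positions in tandem repeats of 1 to 6 bases, 414 positions with at least 2 other sites within 50 bases, and 308 isolated nuclear positions. The classes were defined after the lists had been read. By Fisher's exact test on summed reads, 136 sites were higher at 6 h (5.85%) and 49 were lower (2.11%), and 104 of the former and 12 of the latter were isolated nuclear sites (33.8% and 3.9% of that class). The totals over all classes shifted strongly when KCl 6h replicate 1 or KCl 6h replicate 2 was left out, through mitochondrial sites. Because the level itself admits a site, nearly all of the 117 nuclear sites that passed at 6 h and not at 0 h were higher at 6 h (116) and most of the 32 that passed at 0 h and not at 6 h were lower (29), and the class counts are a description. Levels of the times did not overlap at 271 higher sites (11.7%) and 215 lower sites (9.25%) of all classes, and at 167 (54.2%) and 34 (11%) of the nuclear ones. Of the 104 higher nuclear sites 65 had not passed at 0 h. Just inside the threshold, 31 nuclear sites had a deciding level from 10% to under 11%, and just outside it 70 cytosines had a level from 9% to under 10%.

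The counts at nuclear sites depended on the time at which a site had to pass. Over all 191 sites that passed at 0 h, whatever their level at 6 h, a choice that favours 0 h and was added after seeing the data, 110 levels were higher at 6 h and 79 lower. Their median difference was 2 percentage points, and Fisher's exact test called 39 higher and 12 lower. Of all 2138 sites of any class that passed at 0 h it called 68 higher and 49 lower. Over the 159 sites that passed at both times, the median level was 21.6% and 21.7% in the 0 h replicates and 26.5% and 25% in the 6 h replicates. At these sites 108 levels were higher and 50 lower, the median difference was 2.85 percentage points, and Fisher's exact test called 39 higher and 6 lower. Of all 1963 sites of any class that passed at both times it called 68 higher and 37 lower. The KCl 2h libraries, which enter no comparison here, give another choice of sites, which sets no minimum level at 0 h or 6 h but requires 20 reads in all 4 libraries, and thus at least 1 unconverted read in each, as the lists hold no other cytosines. This choice admits sites that are high after KCl and leaves out sites that are low after it. Of the 351 nuclear sites that passed in both 2 h replicates, 259 were higher at 6 h, 91 were lower, and 1 was equal. Their median level was 11.3% in either replicate at rest, against 15.8% and 14.3% in those of 6 h. Their differences had a median of 3.2 percentage points and quartiles at −0.15 and 7.60. Fisher's exact test called 105 of them higher (29.9%) and 13 lower (3.7%), against 6.56% and 2.5% over the 2042 sites of all classes chosen in this way. For 171 sites (48.7%) both 6 h levels lay above both 0 h levels, and for 33 (9.4%) both lay below. In the other classes chosen in this way both lay above at 26 of 298 clustered, 10 of 707 mitochondrial, and 18 of 686 tandem repeat sites. Both lay below at 48, 61, and 37 of these.

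Calls at single nuclear sites depended on the test. Fisher's exact test on summed reads leaves out the spread between replicates. With that spread in the test, limma on the log2 odds called 16 of the 308 nuclear sites higher and 0 lower, and 0 of the 351 sites chosen at 2 h (83 at an unadjusted p under 0.05), while a quasi-binomial model called 0 of all 2324 sites (122 unadjusted). All 16 limma calls were also Fisher calls, and 7 of them passed at both times. Limma over nuclear sites alone was added after seeing the data. Over all 2324 sites limma called 0 higher and 0 lower, and over nuclear sites with a replicate block it also called 0 and 0. The median lowest coverage of a nuclear site was 127.5 reads. Unconverted reads of PCR copies are not independent, so the counting error is a lower limit of the error.

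**Figure D4:**
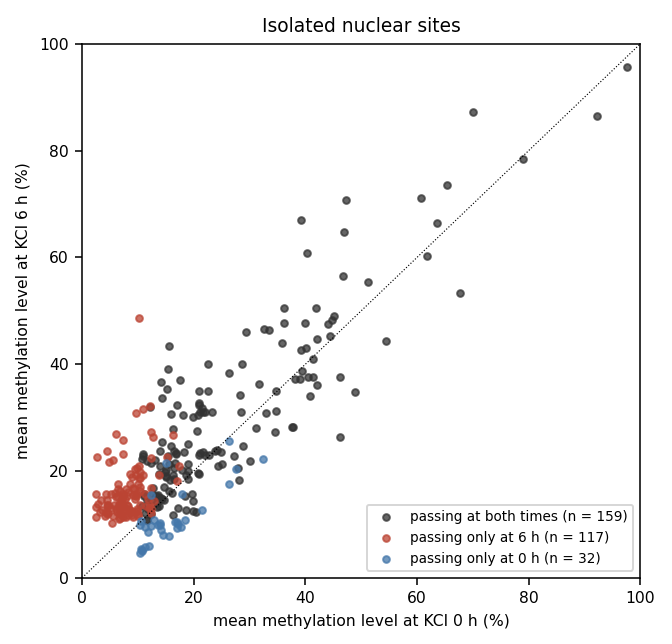
Mean methylation level in percent of the 308 isolated nuclear sites at KCl 0 h (x axis) and KCl 6 h (y axis), each the mean of 2 replicates, coloured by the time at which the site passed; the dotted line marks equal levels. Of the sites passing at both times 108 lie above the line and 50 below it, and nearly all sites passing at one time lie on one side, because of how they were chosen.

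Among isolated nuclear sites in a single gene that were called by Fisher's exact test and did not overlap between the times, the 8 with the largest rises are given with 10 bases on either side (GRCm38, strand of the transcript), so that the context of each changing cytosine can be seen. The cytosine of the site is in capitals, and so are 3 guanines that follow it after 1 base, the CNGGG context.
Mad2l2: ggagaaaacaCagcgatcata
Clec2l: gaaaacagccCaGGGctagag
Ccdc107: acagctggtgCagctgacaca
Neurl1a: tgagcctgccCgagtcaccgg
Myo9b: gtgcggggggCcgtggaaggt
Rnf157: tggctttgatCtggaccgtga
Gpr137: tgggcttcttCcGGGtacacc
Yipf1: ccagcatcagCaggaaactga

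Of these 8, the sites of Ccdc107 and Rnf157 had the deepest coverage, and both passed at all 3 times. The Ccdc107 site (chr4:43495356, plus strand, coding sequence) had a level of 15.3% and 16% at rest and of 42.8% and 43.9% after 6 h of KCl, with 479 to 806 reads per library. The mean went from 15.7% ± 0.5 to 43.4% ± 0.8 (SD, n = 2), a rise of 27.7 percentage points (Fisher's exact test, adjusted p = 7.11e-52; limma over nuclear sites, adjusted p = 0.0479). Limma over nuclear sites was added after seeing the data, and limma over all sites called none. The Rnf157 site (chr11:116359297, minus strand, coding sequence), in a gene for a neuronal ubiquitin ligase, was at 13.6% and 14.8% at 0 h and at 35.8% and 37.4% at 6 h, with 594 to 1117 reads. The Neurl1a site (chr19:47257448, plus strand, coding sequence) was at 17.0% and 13.7% and then at 40.5% and 37.6%, with 121 to 171 reads. At each of these 3 sites the replicates of a time lay within 4 percentage points of each other, far less than the rise, and the Fisher call held without each library in turn.

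Of the other 5, the sites of Mad2l2 and Yipf1 kept their call without each library in turn and those of Clec2l, Myo9b, and Gpr137 did not. Mad2l2 (chr4:148140305, plus strand, 5′ UTR), whose product is a subunit of DNA polymerase zeta, had the largest rise, from 6.1% and 14.3% to 51.9% and 45.5%, but only 22 to 33 reads per library. It passed at 6 h and not at 0 h, as did Yipf1 (chr4:107359682, plus strand, 3′ UTR; 5.7% and 6.4%, then 29.7% and 24.0%) and Gpr137 (chr19:6939039, minus strand, coding sequence; 6.9% and 12.3%, then 19% and 42.9%). Clec2l (chr6:38680743, plus strand, 3′ UTR) was at 40.8% and 37.5% and then at 75% and 59%, and Myo9b (chr8:71359444, plus strand, coding sequence) was at 59.6% and 35.0% and then at 64.0% and 77.6%. The call of Gpr137 was lost without KCl 6h replicate 2 (a rise of 9.40 points, adjusted p = 0.31). That of Myo9b was lost without KCl 0h replicate 2 (11.2 points, adjusted p = 0.755) or KCl 6h replicate 2 (16.7 points, adjusted p = 0.314), and that of Clec2l without KCl 0h replicate 1 (29.5 points, adjusted p = 0.0594), KCl 0h replicate 2 (26.2 points, adjusted p = 0.0525), or KCl 6h replicate 1 (19.9 points, adjusted p = 0.166), all by Fisher's exact test.

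Fewer falls than rises were called. Of the 8 largest falls chosen by the same rule, the one that held without each library in turn was that of Cotl1, which encodes an F-actin binding protein. Its sequence is given with that of Trio, the largest of the 8. Larger falls that were not called, such as that of Zbtb4 (from 49.1% and 43.2% to 25.9% and 26.9%, Fisher's exact test, adjusted p = 0.161), and called sites shared by several genes or with overlapping levels are not among them.
Cotl1: ctctggtagaCactgcttggc
Trio: gcgcgctcctCgggccgagcc

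The Cotl1 site (chr8:119809704, minus strand, 3′ UTR) was at 27.4% and 28.3% at 0 h and at 21.2% and 19.9% at 6 h, with 1989 to 3032 reads, a difference of −7.30 percentage points (Fisher's exact test, adjusted p = 2.10e-15). The Trio site (chr15:28025652, minus strand, 5′ UTR), in a gene for a guanine nucleotide exchange factor of axon growth, was at 43.9% and 54.0% and then at 30.3% and 39.3%, and its call was lost without KCl 0h replicate 2 (−9.10 points, adjusted p = 0.724) or KCl 6h replicate 1 (−9.65 points, adjusted p = 0.452). The other 6, in Flna, Elavl3, Surf4, Fam219a, Pi4ka, and Ybx3, had differences of −6.15 to −8.75 percentage points, and each lost its call without at least one library. The weakest was Elavl3, with an adjusted p of 0.96 without KCl 0h replicate 2. None of the 8 was called by limma over nuclear sites.

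By position, 123 of the 308 nuclear sites lay in coding sequence (39.9%), 120 in 3′ UTRs (39.0%), and 28 in 5′ UTRs (9.09%). The CNGGG context was found at 73 nuclear sites (23.7%) and at 1.74% of the 294618 background cytosines with a level under 1% in all 4 libraries. The CTCCA context was found at 9 sites (2.92%) and at 0.738% of the background. Both contexts were searched from the cytosine onward on the strand of the transcript. Among the 351 sites chosen at 2 h, the median difference was 3.83 percentage points at 156 coding sites, 2.85 at 135 sites in 3′ UTRs, and 2.78 at 28 sites in 5′ UTRs, and the quartile ranges overlapped. It was 3.85 at 89 sites with CNGGG (quartiles 0.55 and 7.85) and 2.98 at 262 without (quartiles −0.25 and 7.54), and the difference between the contexts was not tested.

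Transcript and level changes could be set side by side for 180 genes with a nuclear site. In 56 genes called higher the median level change was 2.30 percentage points, in 77 genes called lower it was 5.35, and in 47 genes not called it was 4.40. The level was higher at 6 h in 35, 59, and 34 of these genes. Across the 180 genes Pearson's r was −0.15 and Spearman's rho −0.17, a description over genes, which are not independent and whose coverage enters both measures. Without KCl 0h replicate 2, r was −0.08. Among the 84 sites chosen at 2 h in genes called lower, 36 were called higher by Fisher's exact test and 2 lower, among the 72 in genes called higher 17 and 7 were, and among the 51 in genes not called 19 and 3 were, beside 29.9% and 3.7% of all 351 sites.

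Of all 308 nuclear sites Fisher's exact test called 104 higher and 12 lower. Only 6 of these called sites lay in genes that changed by at least 1 on the log2 scale, and all 6 were higher at 6 h. Of these genes 4 had fallen, namely 5730409E04Rik (log2 change −1.17, site from 18.4% and 6.4% to 24.4% and 30.2%), Cend1 (−1.02, from 15.2% and 16.8% to 32.4% and 29.0%), Rapgefl1 (−1.14, from 10.1% and 11.4% to 12% and 32.5%), and Hrk, a proapoptotic BH3-only gene (−1.04, from 22.7% and 19.6% to 33.5% and 28.6%). The other 2 had risen. The Sik3 site (chr9:46222270, plus strand, 3′ UTR) went from a mean of 12.4% ± 5.87 to 22.4% ± 0.212 (SD, n = 2) while its coverage went from 98 and 91 reads to 535 and 688. The Homer1 site (chr13:93303935, plus strand, 5′ UTR) went from 3.8% and 8.5% to 17.1% and 13% while its coverage went from 104 and 82 reads to 631 and 563. Another Homer1 site in the 5′ UTR (chr13:93303841, plus strand) was at 3.1% and 16.7% at 0 h and at 19.4% and 12.1% at 6 h and was not called (Fisher's exact test, adjusted p = 0.706). Sites of Meg3 and Btbd9, which rose by 1.25 and 1.39 on the log2 scale, were not called either. Each of the 6 calls was lost without one library or another. The Rapgefl1 difference was 1.25 points without KCl 6h replicate 2, and the Homer1 site had adjusted p = 0.485 without KCl 0h replicate 1. The sites of the 2 genes that rose are given with that of Rhbdd2, a gene that the study discusses, with capitals as before.
Sik3: aggaaataaaCaggaaatcag
Homer1: tcatcccctcCggtgttgttc
Rhbdd2: agggacctccCaGGGggtaca

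The Rhbdd2 site (chr5:135643265, plus strand, coding sequence) was at 4.5% and 4.5% at 0 h and at 33.3% and 14.3% at 6 h, with 75 to 269 reads, and its Fisher call held without each library in turn. It passed at 6 h and not at 0 h, and its 6 h replicates differed more than its 0 h replicates. The Zbed3 site (chr13:95336484) was at 15.8% and 15.8% and then at 22.2% and 14.3% and was not called. Neither Rhbdd2 nor Zbed3 had 5 shared cytosines for a transcript value, and Fam122a and Zfp553 had neither a site nor a transcript value.

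Mitochondrial sites differed more between the replicates of 6 h than between the times. Their median level was 33.3% and 31.1% at 0 h and 47.8% and 20.5% in replicates 1 and 2 at 6 h. KCl 6h replicate 1 was above replicate 2 at 799 of the 801 sites, and Fisher's exact test between these 2 replicates called 505 sites, against 0 between the 0 h replicates. The median difference between the times was 4.05 percentage points with all 4 libraries, 17.6 without KCl 6h replicate 2, and −7.95 without KCl 6h replicate 1, so it has no settled direction. Fisher's exact test called 26 sites higher (3.25%) and 21 lower (2.62%), and levels did not overlap at 11 higher (1.37%) and 65 lower sites (8.11%). Without KCl 6h replicate 1 it called 0 higher and 67 lower. The site with the largest rise, in mt-Nd4 (position 11236), was at 39.3% and 37.9% at 0 h and at 72% and 43.7% at 6 h, and without KCl 6h replicate 1 it rose by 5.10 points and was not called. Of the 21 lower calls 20 lay in mt-Nd5, where the site at position 12137 went from 39.1% and 38.3% to 22.9% and 17.2%. The other, at position 10770 on the minus strand and outside annotated genes of that strand, went from 31.4% and 30% to 8.8% and 5%. The sites were dense. In mt-Nd4 all 143 shared cytosines were sites and in mt-Nd5 358 of 374 were. At mt-Nd2 the median level was 80.6% and 28.0% in the 6 h replicates, at mt-Nd1 45.8% and 13%, and at mt-Co1 42.3% and 19.5%. These sites had a median coverage of 52 to 93 reads per library.

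**Figure D5:**
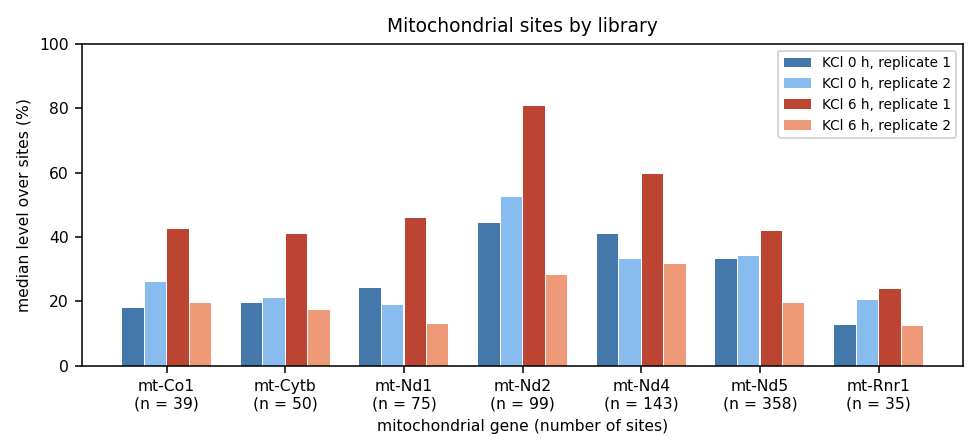
Median methylation level in percent over the sites of each mitochondrial gene, 1 bar per library, with the number of sites below each gene. In all 7 genes the bar of KCl 6 h replicate 1 is the highest and that of replicate 2 lies below it, so no common change between the times can be read.

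Sites in tandem repeats had a median level of 100% in all 4 libraries, and at 511 of the 801 the mean levels of both times were equal, on levels that the files give to 0.1 percentage points. Fisher's exact test called 2 of them higher and 9 lower. The 414 clustered sites had medians of 46.2% and 45.9% at 0 h and 43.5% and 43.4% at 6 h, a median difference of 0, and 4 higher and 7 lower calls.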

How the data were processed

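RNA BS-seq lists of 6 libraries (KCl 0h, 2h, and 6h, 2 replicates each) were used. Per the study's methods, the authors used Trim Galore for trimming and the meRanTK programs meRanRh and meRanCall for alignment to GRCm38 and for calling. The authors deposited, per position, raw read counts (coverage, unconverted C, other base) and the level as a fraction, unconverted reads over unconverted plus converted reads, with no normalization. A cytosine is listed only with at least 10 reads and 1 unconverted read, so poorly covered transcripts and fully converted cytosines are missing. The GEO labels name R 4.1.1.

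The 0 h and 6 h libraries held total coverages of 1637706778 to 2213035261. A read is counted once per cytosine, so coverages of a gene are not independent and precision rests on the 2 replicates. Coverage was summed per gene and tested with edgeR 4.0.16 (TMM, quasi-likelihood, Benjamini-Hochberg over 3922 genes). SEs came from limma 3.58.1 on median log2 coverage. The printed change, its SE, and the edgeR adjusted p thus come from separate estimates, which can differ. For Snap25 the limma log2 change was 0.50, against the printed 0.40. For levels, reads were summed over replicates and compared by Fisher's exact test (two-sided), adjusted over 2324 sites. Segments and gene coordinates came from GENCODE M21, and sequences from the deposited lists. A tandem repeat allowed at most 2 mismatches in 21 bases. DESeq2 1.42.0, limma with a pseudocount of 0.5, a quasi-binomial model, other minimums, scalings, and site sets, the replicate block, and leaving out each library were alternatives. The edgeR, Fisher, and limma site tests were tested on simulated data, where limma recovered far fewer changed sites than Fisher's exact test. The simulated levels had no spread between replicates beyond counting error. The simulation therefore cannot compare the site tests for these data, in which the replicates differ. Python 3.11.15, pandas 2.3.3, numpy 2.4.6, scipy 1.17.1, matplotlib 3.10.9, and R 4.3.3 were used.

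Named genes were the 12 largest rises and falls with a call and no overlap between times, 2 called members per list and direction, genes the study discusses, and the 5 most uneven genes. Named sites were the 8 largest nuclear rises and falls in a single gene with a Fisher call and no overlap, those in genes changed by at least 1 on the log2 scale, and mitochondrial sites. Other list members named were chosen after their values were seen. Members, lists, and tests were chosen with earlier results of these data known, so no list is independent evidence. Some list members are counted but not reported here by name.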

Additional observations from a re-analysis of the deposited data

How the results depend on the processing

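The transcript counts, 1410 higher and 1418 lower, stayed within 1.5 times under DESeq2 (1449 and 1459), limma on median log2 coverage (1319 and 1287), plain totals (1255 and 1564), and coverage minimums of 10 or 50 reads. Leaving out each library gave 1129 to 1442 higher and 1133 to 1431 lower. With at least 20 cytosines per gene, 847 and 880 of 2416 genes were called, fewer because fewer were tested (893 and 840 of these under the main setting). Of all 3922 genes, 178 and 142 were called with an edgeR log2 change of at least 1. The median log2 change stayed between −0.06 and 0.01.

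The replicate numbers come from the labels, and whether they pair the samples is not known. The correlation of replicate 1 deviations between the times was −0.19 over genes. It cannot decide this, as swapping the replicates of 1 time only turns its sign. The replicate block gave 1355 higher and 1375 lower transcripts, and 159 higher and 46 lower sites by the Cochran-Mantel-Haenszel test. The crossed pairing, added after seeing the data, gave 1455 and 1464 transcripts and 122 and 43 sites. The relation of level to transcript change was −0.052 in pair 1 and −0.19 in pair 2 of the replicate block, and −0.17 to −0.08 with libraries left out.

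The level change at nuclear sites was 4.73 percentage points, 4.15 to 5.20 with libraries left out, 7.50 with a level of at least 20%, 2.85 for sites passing at both times, 2 for sites passing at 0 h (added after seeing the data), and 3.2 for sites chosen at 2 h. That at mitochondrial sites ranged from −7.95 to 17.6. The counts of 136 higher and 49 lower sites were 0 and 0 by limma over all sites (61 at an unadjusted p under 0.05) and by the quasi-binomial model, and after seeing the data limma over nuclear sites gave 16 and 0, with a replicate block 0 and 0, and over nuclear sites chosen at 2 h 0 and 0. They were 69 and 27 with a difference of at least 10 points, 128 and 24 when adjusted over nuclear sites alone, and 89 to 462 and 24 to 93 with libraries left out; the highest counts came without KCl 6h replicate 2 and without KCl 6h replicate 1, through mitochondrial sites.

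Of the single named sites, 42 of the values with a library left out or another minimum lost their call and 104 were unchanged. For named transcripts 4 lost it and 456 were unchanged, and none reversed. The cause of these shifts was not tested. The lowest coverage of a nuclear site was 20 reads and the median lowest coverage 127.5, which limits the levels of single sites.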
